A study of Mus musculus with 23 samples.

Results

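Malat1, Neat1, Meg3, Kcnq1ot1 and AI506816 are long noncoding RNA genes, and Rsrp1, Clk1, Clk4 and Srsf5 encode proteins of the splicing machinery whose transcripts are known to keep introns. These 9 genes, of 56748 listed in the count table, were taken by their symbols and described in all 8 groups of the study. They were chosen with results of these same data known, the higher levels in tumors injected with norcantharidin among them. Differences that involve injected tumors are therefore given as a description, without a test of the 9 genes. Which values led to the choice is not recorded, so p-values of the intraperitoneal route are no independent test of them either. All 9 genes passed the filter on low counts in both routes, and the counts of single tumors ran from 5 for Meg3 to 3968 for Rsrp1.

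Malat1 is an abundant RNA of nuclear speckles, the bodies in which splicing factors are stored, and Neat1 is the scaffold of paraspeckles. Kcnq1ot1 and Meg3 are transcribed from imprinted regions and act on genes in the nucleus. Clk1 and Clk4 are kinases that phosphorylate SR proteins, and SR proteins such as Srsf5 guide the choice of splice sites. Many transcripts of such splicing genes keep 1 or more introns, called detained introns, and wait in the nucleus until the intron is removed. Rsrp1 encodes an arginine- and serine-rich protein, and no function is given here for AI506816.

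The tumors grew under the skin of DBA/2J mice aged 6 to 8 weeks from B16-F1 cells, a mouse melanoma line of C57BL/6 origin, so each sample also holds host cells. Pentoxifylline (PTX, a methylxanthine derivative, 60 mg/kg), norcantharidin (NCTD, a demethylated form of cantharidin, 3 mg/kg) or both (MIX) were given by the intraperitoneal (IP) or the intratumoral (IT) route. The controls received saline in CONTROL_IP and DMSO in CONTROL_IT. CONTROL_IP, PTX_IP, NCTD_IP and MIX_IP held 2 tumors each, CONTROL_IT, NCTD_IT and MIX_IT held 4 each, and PTX_IT held 3, which makes 23 tumors. Each route was labelled as its own batch, so route and batch cannot be told apart.

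The gene counts of a tumor summed to between 2861578 and 6702374. Levels are given as CPM, counts scaled to a common library size with TMM over all 23 tumors. A floor of 3 counts corresponds to 0.448 to 1.05 CPM and covers counting error only. The labelled cell type showed in all tumors, where 8 melanocytic marker genes summed to between 16832 and 40296 CPM. Markers of macrophages, fibroblasts and red cells were present as well. In bulk tumors, fewer cells of a type and less RNA per cell cannot be told apart.

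The 3′ ends of Malat1 and Neat1 are shown because both RNAs can end, without an added tail, in a stretch of A that the genome itself encodes, while the libraries were made from the 3′ end of poly(A) RNA. In GRCm39 the stretches lie at chr19:5845944-5846072 (Malat1, minus strand) and chr19:5874670-5874791 (Neat1, minus strand). The capitals mark the run of A with the following GCAAAAG, and both sequences were read from the genome in the direction of transcription.

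Malat1: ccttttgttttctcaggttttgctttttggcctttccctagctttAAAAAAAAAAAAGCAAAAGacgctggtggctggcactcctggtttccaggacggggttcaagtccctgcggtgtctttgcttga
Neat1: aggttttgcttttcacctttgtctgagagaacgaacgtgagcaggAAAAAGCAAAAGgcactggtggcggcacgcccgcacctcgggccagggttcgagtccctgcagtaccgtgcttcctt

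The run held 12 A in Malat1 and 5 in Neat1, with the same GCAAAAG after both. In Neat1 the annotated gene ends 1 base before the end of the capitals, and in Malat1 the annotation runs on for 292 bases. Runs of at least 12 A on the transcribed strand occurred 8 times within the annotated span of Kcnq1ot1, 4 times in Meg3, 2 times in Clk1 and once each in Malat1, AI506816, Clk4 and Srsf5. Neat1 and Rsrp1 held 0 such runs. Of all genes kept in the 23 tumors, 63.7% held at least 1.

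Clk1 and Clk4 share the layout around their introns 3 and 4, which flank an exon that is skipped in part of the transcripts. The 5′ splice sites of these introns are shown as 10 bases of exon and 20 of intron, with the first 6 bases of the intron in capitals.

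Clk1 intron 3: ttcacacgggGTATGAgtgccttttaaacg
Clk4 intron 3: gtcgcattcgGTATGAgtggtttgttttta
Clk1 intron 4: agtgcaagatGTATAGaatatttttcaaca
Clk4 intron 4: agagcaagatGTATAGaatatttttcaaca

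The first 6 intron bases were the same in Clk1 and Clk4 for each intron. Intron 3 of Clk1 lies at chr1:58459371-58460241 (871 bases) and intron 4 at chr1:58458893-58459279 (387 bases), both on the minus strand. Those of Clk4 lie at chr11:51162850-51163904 (1055 bases) and chr11:51163996-51164386 (391 bases) on the plus strand. In the GENCODE vM39 annotation, 2 transcripts of Clk1 and 1 of Clk4 keep each of these introns.

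All 4 protein-coding genes have transcripts annotated as intron-retaining, with 7 of 22 transcripts for Clk1, 7 of 57 for Clk4, 3 of 97 for Srsf5 and 1 of 27 for Rsrp1. At least 1 such transcript was annotated for 60.2% of 11693 protein-coding genes kept, at least 3 for 22.6% and at least 7 for 2.45%. A count per gene from 3′ libraries cannot tell a spliced transcript from one that keeps an intron, so the values below are levels of all transcripts of a gene together.

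Malat1 was highest in the tumors injected with NCTD. It reached 401, 690.2, 278 and 534 CPM in the 4 tumors of NCTD_IT, against 77.4, 88.3, 76.2 and 96.3 CPM in CONTROL_IT. Every NCTD_IT tumor stood above every CONTROL_IT tumor. The level was 155, 194, 496 and 274 CPM in MIX_IT, also above all controls, and 192, 423 and 74.1 CPM in PTX_IT, where the lowest tumor lay below them. The log2 fold change against CONTROL_IT was 2.49 (standard error 0.45) in NCTD_IT, 1.73 (0.44) in MIX_IT and 1.43 (0.46) in PTX_IT. In the IP tumors Malat1 stood at 108 and 147 CPM in CONTROL_IP, 109.9 and 106 in PTX_IP, 69.3 and 177 in NCTD_IP, and 109.9 and 155 in MIX_IP. CONTROL_IT thus had the lowest mean of the 8 groups, 84.5 ± 9.55 CPM (SD, n = 4), and NCTD_IT the highest, 476 ± 177 CPM (SD, n = 4). When the groups were ordered by their means, the ranges of 6 of the 7 neighbouring pairs overlapped, and PTX_IP and CONTROL_IT at the lower end did not.

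**Figure D1:**
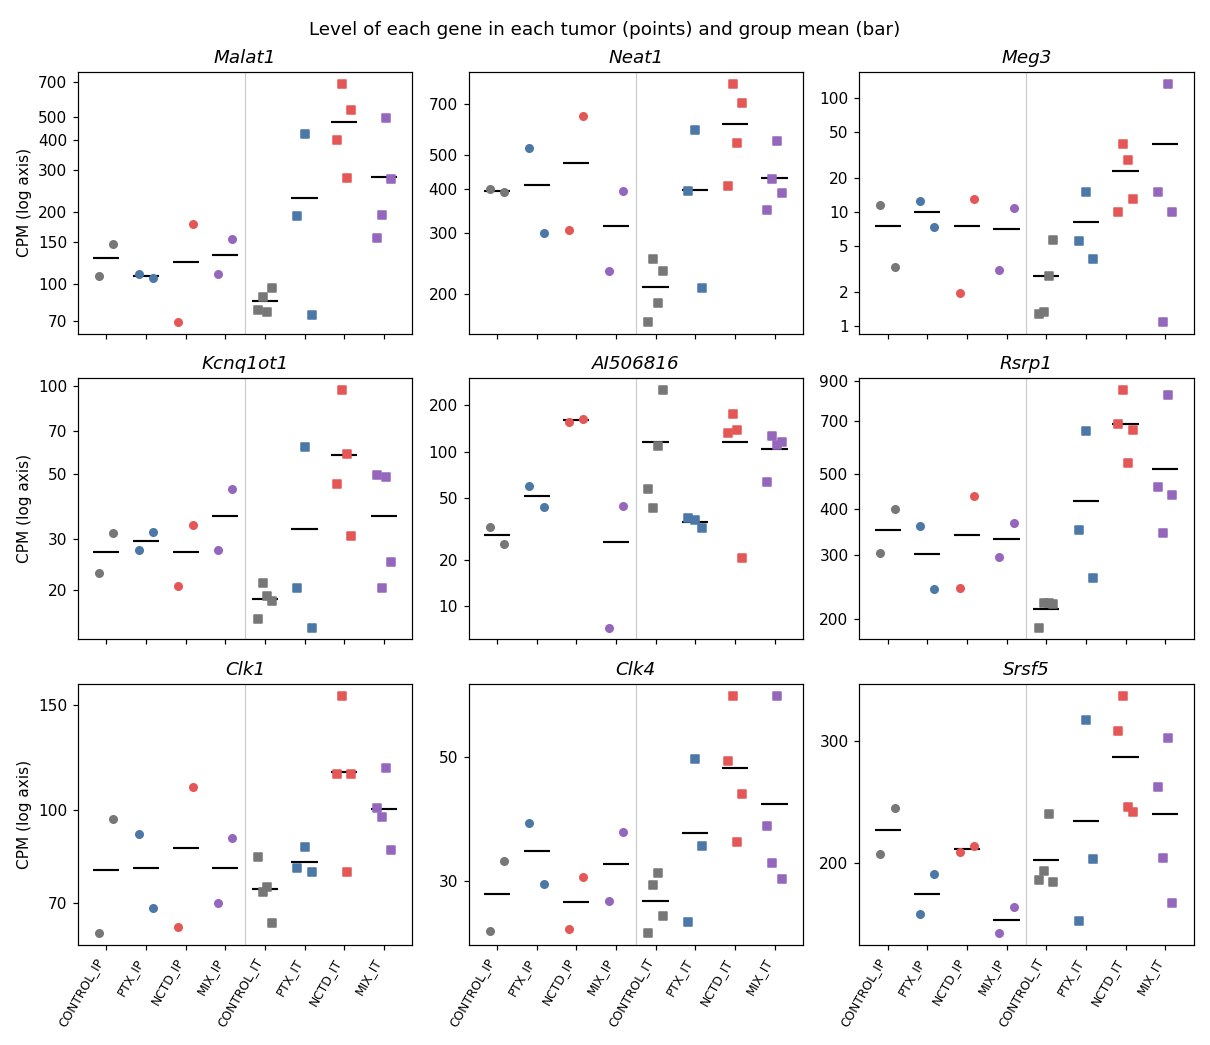
Level of each of the 9 genes in CPM (log axis) in the 23 tumors, by group. Each point is a tumor (circles IP, squares IT), bars are group means, and Malat1 stands between 278 and 690.2 CPM in NCTD_IT and between 76.2 and 96.3 CPM in CONTROL_IT.

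Neat1, whose gene lies next to Malat1 on chromosome 19 (chr19:5874736-5895898, against chr19:5845717-5852704 for Malat1), showed a smaller difference of the same direction. It stood at 408, 799, 542 and 703 CPM in NCTD_IT and at 167, 253, 188 and 233 CPM in CONTROL_IT, without overlap. MIX_IT held 348, 428, 549 and 391 CPM, again above all controls, while PTX_IT ranged from 208 to 591 CPM. The log2 fold change was 1.54 (standard error 0.28) in NCTD_IT, 1.03 (0.28) in MIX_IT and 0.91 (0.30) in PTX_IT. In the IP groups the means lay between 314 and 474 CPM, all above the 210.1 ± 39.6 CPM (SD, n = 4) of CONTROL_IT.

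Rsrp1 followed the same order of the IT groups. CONTROL_IT was tight at 189, 220.4, 221 and 219 CPM, and NCTD_IT held 688, 854, 537 and 663 CPM. MIX_IT stood at 460.2, 345, 828 and 437 CPM and PTX_IT at 349.5, 659 and 258 CPM. The tumors of all 3 drug groups were above all controls. As log2 fold change against CONTROL_IT this was 1.69 (standard error 0.29) in NCTD_IT, 1.29 (0.29) in MIX_IT and 0.98 (0.30) in PTX_IT. In the IP tumors Rsrp1 ranged from 241 to 436 CPM, with group means between 301 and 351 CPM.

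Kcnq1ot1 was also higher in NCTD_IT, where it reached 46.3, 97.2, 58.6 and 30.6 CPM, against 15.9, 21.2, 19.1 and 18.4 CPM in CONTROL_IT. MIX_IT held 49.6, 20.2, 48.6 and 24.9 CPM, and its lowest tumor lay within the controls. On the log2 scale the difference from CONTROL_IT was 1.64 (standard error 0.44) in NCTD_IT, 0.93 (0.43) in MIX_IT and 0.78 (0.46) in PTX_IT.

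Meg3 was low and varied most between tumors. In CONTROL_IT it stood at 1.28, 1.31, 2.77 and 5.65 CPM and in NCTD_IT at 10.1, 39.8, 28.3 and 13.03 CPM, without overlap. In MIX_IT the values were 14.95, 1.09, 133 and 9.98 CPM, so that 1 tumor carried the group mean. The log2 fold change in MIX_IT, 3.86 (standard error 1.07), was 1.65 without this tumor, replicate 23. The same tumor had the highest sum of fibroblast markers of all 23, 8571 CPM, against 493 to 1878 CPM in the other 3 of MIX_IT, and the lowest sum of melanocytic markers, 16832 CPM. The part of these cells in the level of Meg3 was not tested.

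The splicing kinases and Srsf5 differed less. Clk1 stood at 115, 155, 79.0 and 115 CPM in NCTD_IT and at 83.8, 73.0, 74.7 and 64.9 CPM in CONTROL_IT, where the lowest NCTD_IT tumor lay within the controls. Clk4 held 49.1, 64.1, 35.2 and 42.8 CPM in NCTD_IT, above the 24.2, 29.5, 30.9 and 26.0 CPM of CONTROL_IT. Srsf5 held 310.0, 349, 241 and 237 CPM, just above the 189, 195, 235 and 188 CPM of the controls. The log2 fold changes in NCTD_IT were 0.65 (standard error 0.18) for Clk1, 0.79 (0.27) for Clk4 and 0.50 (0.22) for Srsf5. In MIX_IT they were 0.44, 0.57 and 0.22, in the same order of genes, and Clk1 alone of the 3 was above all controls, at 86.0 to 118 CPM.

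AI506816 did not follow the other 8 genes. It stood at 57.8, 43.1, 109 and 252 CPM in CONTROL_IT and at 133, 174, 138 and 20.5 CPM in NCTD_IT, a log2 difference of 0.02 (standard error 0.53). In PTX_IT it was lower than in all controls, at 37.3, 36.3 and 32.3 CPM, the log2 fold change being -1.71 (standard error 0.61). Its clearest difference lay in the IP tumors, with 157 and 164 CPM in NCTD_IP against 32.7 and 25.3 CPM in CONTROL_IP, 59.9 and 43.8 CPM in PTX_IP, and 7.29 and 44.5 CPM in MIX_IP. The log2 fold change of NCTD_IP was 2.47 (standard error 0.58), which ranked 7th by p among 12424 genes, at an unadjusted p of 0.00203, and did not pass the correction in edgeR's quasi-likelihood test (Benjamini-Hochberg adjusted p = 0.999). With only the tumors of NCTD_IP and CONTROL_IP in the fit, 2 against 2, edgeR's adjusted p was 0.0162. AI506816 may have been chosen with this difference known, so nothing is read from its rank or p-values. MIX_IP, which received the same dose of NCTD together with PTX, showed a log2 fold change of -0.16 (standard error 0.58).

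**Figure D2:**
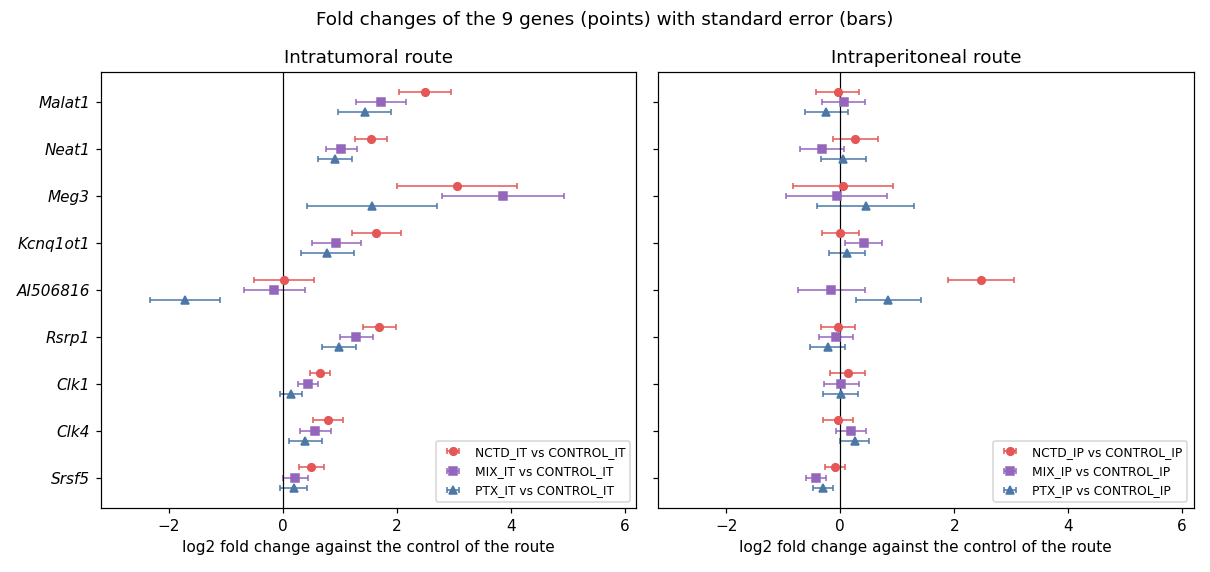
Log2 fold change of each gene against the control of its route, IT on the left and IP on the right, with standard errors as bars. In NCTD_IT 8 genes lie between 0.50 and 3.06 and AI506816 at 0.02, while in NCTD_IP AI506816 stands apart at 2.47.

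Set against all genes, edgeR's quasi-likelihood test gave an adjusted p below 0.05 (Benjamini-Hochberg over 12480 genes) for 3 of the 9 genes as higher in NCTD_IT, namely Malat1, Neat1 and Rsrp1, and for 0.921% of all genes. All 9 log2 fold changes were above 0, as were 52.0% of those of all genes, and their median was 1.54 against 0.03 for all genes tested. The tumors of NCTD_IT were all above those of CONTROL_IT for 7 of the 9 genes, all but AI506816 and Clk1, and for 7.8% of all genes. At an unadjusted p below 0.05, 8 of the 9 were higher, as were 11.6% of all genes. Since the genes were chosen with differences of injected tumors known, nothing is read from these counts, nor from those of the other IT comparisons below. All 3 calls were lost in edgeR when 1 tumor was left out, for any of CONTROL_IT replicates 9, 11 and 12 and NCTD_IT replicates 17 and 18, while the log2 fold change of Malat1 stayed between 2.26 and 2.69.

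In MIX_IT vs CONTROL_IT, 0 of the 9 genes and 0.0% of all genes passed the adjusted threshold in edgeR. An unadjusted p below 0.05 with a higher level was found for 6 of them, all but AI506816, Clk4 and Srsf5, and for 7.88% of all genes. The MIX_IT tumors were all above the controls for Malat1, Neat1, Rsrp1 and Clk1, 4 of the 9, and for 4.91% of all genes. DESeq2 gave 183 genes in all for this comparison, Malat1, Neat1, Meg3 and Rsrp1 among them. In PTX_IT vs CONTROL_IT, edgeR called 0 of the 9 and 0.0% of all genes, and DESeq2 0 of the 9. Malat1, Neat1 and Rsrp1 were higher at an unadjusted p below 0.05 (4.18% of all genes) and AI506816 was lower (2.16%). Rsrp1 was the gene with every PTX_IT tumor above the controls (3.79% of all genes), and AI506816 the one with every tumor below them (4.16%).

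MIX_IT was lower than NCTD_IT for 8 of the 9 genes, Meg3 being the exception, while 50.6% of all genes were higher. In edgeR 0 of the 9 were called in either direction, against 0.00801% of all genes, 0 had an unadjusted p below 0.05, and DESeq2 called 0. The log2 difference was -0.77 (standard error 0.43) for Malat1, -0.52 (0.27) for Neat1 and -0.41 (0.28) for Rsrp1, and the ranges of the groups overlapped for all 9. These groups also differed in Xist, a marker of host sex given further on. With Xist in the model the difference took the other sign for the 8 genes. It became 2.32 for Malat1, 1.53 for Neat1 and 0.94 for Rsrp1, in a fit whose limits are given there. NCTD_IT was higher than PTX_IT for all 9 genes, by 1.06 (0.47) on the log2 scale for Malat1, and the ranges overlapped for each of the 9. The median log2 difference of the 9 was 0.71, against -6.27e-05 for all genes tested. For neither of these comparisons is the share of all genes without overlap given, so nothing is read from the overlap counts. Here edgeR called 0 of the 9 (0.0% of all genes), 4 were higher at an unadjusted p below 0.05 (2.15%), and DESeq2 called 0. MIX_IT and PTX_IT differed by 0.29 (0.46) for Malat1, with 0 of the 9 called by edgeR (0.0%) or DESeq2 and 2 higher at an unadjusted p below 0.05 (2.07%). AI506816 was the gene whose groups did not overlap, higher in MIX_IT (2.11%). Comparisons against CONTROL_IT share its 4 tumors and are set side by side here without a test of their likeness.

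By the IP route Malat1, Neat1 and Rsrp1 differed from CONTROL_IP by less than 1 standard error in each drug group. Their log2 fold changes were -0.05 (standard error 0.38), 0.27 (0.39) and -0.04 (0.30) in NCTD_IP, and 0.06 (0.38), -0.32 (0.39) and -0.08 (0.30) in MIX_IP. In PTX_IP they were -0.24 (0.38), 0.06 (0.39) and -0.22 (0.30). Against CONTROL_IP, 0 of the 9 genes had an adjusted p below 0.05 in NCTD_IP, PTX_IP or MIX_IP (0.0% of all genes in each) in edgeR, where their adjusted p lay between 0.907 and 1.00, and DESeq2 called 0 as well. An unadjusted p below 0.05 was found for AI506816 in NCTD_IP (1.92% of all genes were higher at this threshold) and for Srsf5 in MIX_IP (1.55% were lower). The log2 fold change of Srsf5 in MIX_IP was -0.42 (standard error 0.18), and 0 of the 9 had an unadjusted p below 0.05 in PTX_IP.

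With 4 IP tumors that received NCTD against 4 that did not, the log2 difference was 0.13 (standard error 0.27) for Malat1, -0.06 (0.27) for Neat1 and 0.05 (0.21) for Rsrp1. In edgeR 0 of the 9 were called (0.0% of all genes), 0 had an unadjusted p below 0.05, and DESeq2 called 0. For PTX in the same layout 0 of the 9 were called by edgeR (0.0% of all genes) or DESeq2. Srsf5 had a log2 difference of -0.32 (0.12) with an unadjusted p of 0.0307 in edgeR (1.55% of all genes were lower at 0.05) and an adjusted p of 0.998. With 2 tumors a group, changes well beyond these standard errors could also go uncalled. AI506816 in NCTD_IP, at 2.47 (0.58), did not pass the adjusted threshold in edgeR.

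The log2 fold change for NCTD was larger by the IT than by the IP route by 2.54 (standard error 0.73) for Malat1, 1.74 (0.49) for Rsrp1 and 1.28 (0.52) for Neat1. For AI506816 it was smaller, by -2.45 (0.95). In edgeR 0 of the 9 genes passed the adjusted threshold for this difference (0.0% of all genes), and DESeq2 called Malat1 and Rsrp1 among 77 genes in all. Nothing is read from these calls, since the difference holds the values known when the genes were chosen. At an unadjusted p below 0.05, 4 were higher and 1 lower, against 5.5% and 5.34% of all genes. The corresponding difference for MIX was 1.68 (0.73) for Malat1 and 1.37 (0.49) for Rsrp1, and for PTX 1.69 (0.74) and 1.22 (0.50), with 0 of the 9 called in either by edgeR (0.0% of all genes) or DESeq2. At an unadjusted p below 0.05, 4 were higher for MIX (4.75% of all genes), and 2 were higher and 1 lower for PTX (2.59% and 2.64%). The tumors of CONTROL_IT, low in Malat1, Neat1 and Rsrp1, enter each of these differences, and the routes differ in batch and in the vehicle of the controls.

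In several groups most of the 9 genes were highest in the same tumor. Replicate 18 was the highest of NCTD_IT for all 9 genes, replicate 15 of PTX_IT for 8 of 9 and replicate 23 of MIX_IT for 7 of 9. Of the pairs of IP tumors, replicate 6 was the higher in NCTD_IP and replicate 8 in MIX_IP for all 9 genes. Replicate 3 was the higher in PTX_IP for 7 of 9 and replicate 2 in CONTROL_IP for 6 of 9. In CONTROL_IT the highest tumor was replicate 11 or 12 for 3 genes each, replicate 10 for 2 and replicate 9 for 1. The share of all genes highest in the same tumors is not given here, so these counts are not read as a trait of the 9 genes. The sum over the 9 genes ran from 805 to 1103 CPM in CONTROL_IT, from 1938 to 3223 CPM in NCTD_IT and from 1449 to 2651 CPM in MIX_IT.

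**Figure D3:**
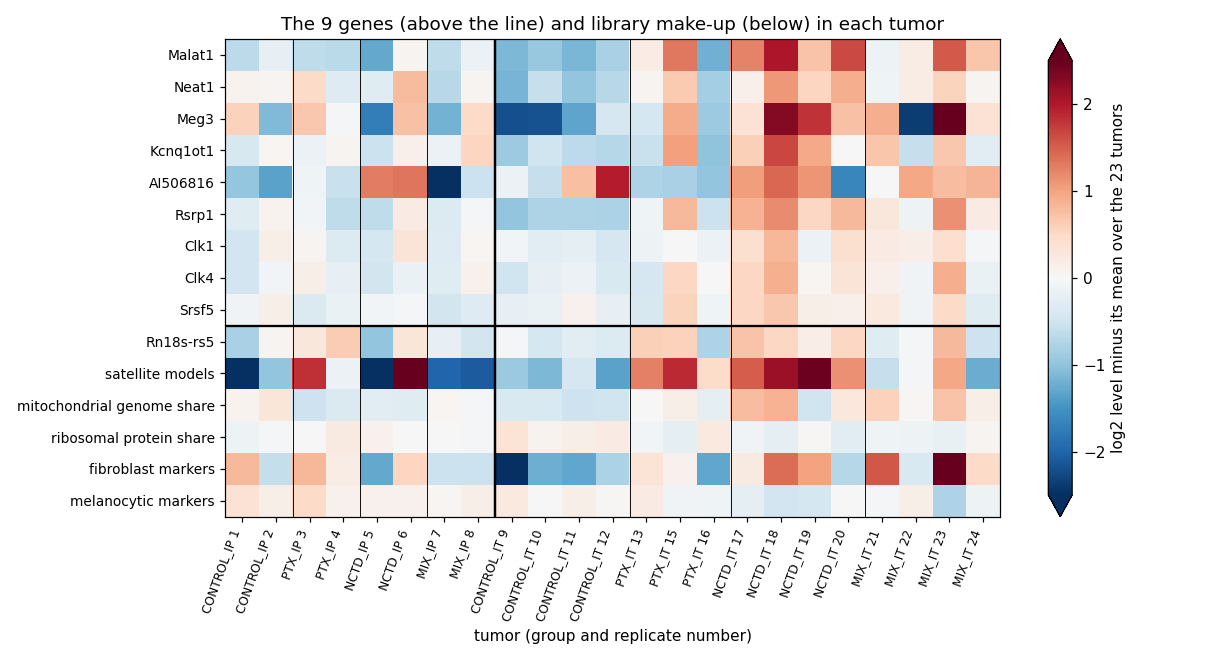
Log2 level of the 9 genes and of 6 measures of library make-up in each tumor, minus the mean over the 23 tumors (color, saturated beyond the scale). Replicates 15, 18 and 23 are high in most of the 9 genes and in Rn18s-rs5, an 18S ribosomal RNA gene. Replicate 13 of PTX_IT and replicate 17 of NCTD_IT are the highest of their groups in Rn18s-rs5.

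Several measures of library make-up differed between NCTD_IT and CONTROL_IT along with the 9 genes, but not in every group. Reads on Rn18s-rs5, an 18S ribosomal RNA gene, made up 13328 to 19346 CPM in NCTD_IT and 8677 to 11555 CPM in CONTROL_IT. They were also high in replicate 23 of MIX_IT, 20743 CPM, and in replicates 13 and 15 of PTX_IT, 17971 and 17600 CPM, but low in replicate 16, 6919 CPM, whose Malat1 was the lowest of PTX_IT. In PTX_IP they reached 14489 and 18248 CPM, within the range of NCTD_IT, while Malat1 stood at 109.9 and 106 CPM. In MIX_IP, replicate 8 was the higher in all 9 genes and replicate 7 the higher in Rn18s-rs5, satellite and mitochondrial reads. Cytosolic ribosomal protein genes took 7.26% to 9.12% of the reads in NCTD_IT, less than the 9.44% to 11.3% of CONTROL_IT. Satellite gene models, copies of repeats, summed to 1191 to 2983 CPM in NCTD_IT and 216 to 406 CPM in CONTROL_IT. Their sum was 742 to 1973 CPM in PTX_IT and 230 to 1060 CPM in MIX_IT. By the IP route it was 83.7 to 275 CPM in CONTROL_IP, 490 to 1924 in PTX_IP, 86.6 to 3231 in NCTD_IP and 128 to 138 in MIX_IP. Within NCTD_IT, replicate 19 held the most satellite reads and the lowest Malat1, 278 CPM. Of 6 such models tested, edgeR called 5 as higher in NCTD_IT, Gm10800, Gm10722, Gm10801, Gm11168 and Gm10718, with log2 fold changes of 2.34 to 3.63. Genes of the mitochondrial genome took 2.47% to 6.32% in NCTD_IT and 2.42% to 2.68% in CONTROL_IT. All long noncoding RNA genes together took 0.965% to 1.16% and 0.818% to 0.870% of the reads in these groups. The part of these measures in the levels of the 9 genes was not tested.

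Markers of host cells moved as well. The 8 fibroblast markers summed to 392 to 1679 CPM in NCTD_IT, 493 to 8571 CPM in MIX_IT and 108 to 368 CPM in CONTROL_IT. Neutrophil markers summed to 1124 CPM in replicate 18 of NCTD_IT, 24.2 to 68.3 CPM in its other tumors and 4.24 to 11.4 CPM in CONTROL_IT. Melanocytic markers summed to 20830 to 28968 CPM in NCTD_IT and 28821 to 34049 CPM in CONTROL_IT. Endothelial markers summed to 91.0 to 166 CPM in NCTD_IT and 63.0 to 92.0 CPM in CONTROL_IT, and adipocyte markers to 135 to 291 CPM and 67.8 to 85.0 CPM. Red cell markers were lower, at 257 to 1355 CPM in NCTD_IT and 1236 to 6930 CPM in CONTROL_IT. Macrophage markers held 542 to 1569 CPM and 199 to 1019 CPM in these groups, and T and NK cell markers 36.2 to 430 and 2.83 to 201 CPM. For muscle the sums were 6.94 to 248 and 5.65 to 43.5 CPM, and for keratinocytes 0 to 7.61 and 0 to 0.875 CPM. Within these lists edgeR called S100a8, S100a9 and Mmp9 of neutrophils as higher in NCTD_IT, with log2 fold changes of 5.60, 6.63 and 5.18, Emcn of endothelial cells as higher, with 1.29, and Mitf of melanocytes as lower, with -0.86. The same lists held uncalled genes of the other direction. These were Mmp8 of neutrophils at -1.09 (standard error 0.85), Eng of endothelial cells at -0.21 (0.31) and Tyr of melanocytes at 0.18 (0.18). The part of these cells in the levels of the 9 genes was not tested.

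The sex of the host differed in its markers between the IT groups, although the groups were described as matched for sex. Xist, which is transcribed from the inactive X chromosome, stood at 5.17 to 13.6 CPM in NCTD_IT and 1.28 to 11.6 CPM in PTX_IT, against 0 to 0.565 CPM in CONTROL_IT and 0 CPM in all MIX_IT tumors. The Y-linked Ddx3y was 0 to 0.293 CPM in NCTD_IT, 0 to 0.278 CPM in PTX_IT, 1.03 to 8.97 CPM in CONTROL_IT and 6.82 to 15.5 CPM in MIX_IT. By the IP route, replicate 2 of CONTROL_IP held 8.24 CPM of Xist and 0.450 CPM of Ddx3y. Replicate 1 and all IP drug tumors held 0 CPM of Xist and 3.27 to 14.0 CPM of Ddx3y. CONTROL_IP was thus mixed in these markers, and it enters each IP comparison and each difference between routes. Xist was not added to the IP models, and the part of sex in them was not tested. NCTD or PTX injection and the sex shown by these markers cannot be told apart in the comparisons with CONTROL_IT, nor can the sex markers and the treatment in those of MIX_IT with NCTD_IT or PTX_IT, while Xist was at or under the floor in all tumors of MIX_IT and CONTROL_IT. When the level of Xist was added to the model, the NCTD_IT log2 fold change became -0.29 for Malat1, -0.29 for Neat1 and 0.48 for Rsrp1, and 0 genes in all were called by edgeR. In PTX_IT it became -1.15 for Malat1, -0.72 for Neat1 and -0.11 for Rsrp1. In MIX_IT the same fit gave 2.03 for Malat1, 1.24 for Neat1 and 1.42 for Rsrp1. Here edgeR called these 3 among 15 of the 12480 genes tested, and nothing is read from these calls. The slope on Xist rested on its spread within groups, mainly NCTD_IT and PTX_IT, and not on the gap between groups. In PTX_IT, replicate 15 held 11.6 CPM of Xist and 1349 CPM of macrophage markers, and replicate 16 held 1.28 and 166 CPM. These values, given without standard errors, are therefore no adjustment for sex alone, and nothing about sex is read from them.

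Lists of other genes tied to splicing or nuclear RNA are given by their counts. Nothing is read from how their values differ from those of the 9 genes, which were chosen with this comparison known. Of 21 further genes known for retained introns, 0 passed the adjusted threshold in NCTD_IT in edgeR, 8 were higher and 0 lower at an unadjusted p below 0.05 (11.6% and 10.0% of all genes), and their median log2 fold change was 0.34. U2af1, a factor that recognises the 3′ splice site, and Son, a speckle protein, had the highest levels of this list, with log2 fold changes of 0.03 and 0.12. Nktr, at 1.09 (standard error 0.27), and Ogt, the enzyme that adds O-GlcNAc to proteins, at 0.89 (0.24), had the largest, and were singled out after their values were seen. In MIX_IT the median was 0.13 with 3 genes higher, in PTX_IT 0.01 with 1, and in NCTD_IP -0.06 with 0.

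Of 10 SR proteins and Tra2 genes, 0 were called in NCTD_IT, 3 were higher at an unadjusted p below 0.05, and the median was 0.16. The most abundant, Srsf3 and Srsf1, had log2 fold changes of -0.05 and 0.23. The 7 other kinases of SR proteins had a median of 0.02 with 0 below an unadjusted p of 0.05, the most abundant being Srpk2 at 0.36 (standard error 0.18) and Dyrk2 at 0.15 (0.16). For the 12 proteins of paraspeckles and speckles the median was 0.06, with 2 higher at an unadjusted p below 0.05 and 0 called. Nono and Hnrnpk, both paraspeckle proteins, had log2 fold changes of 0.15 and 0.33.

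Among 24 other long noncoding RNA genes tested, Xist was called and 8 in all were higher and 1 lower at an unadjusted p below 0.05, with a median of 0.33. Gas5 and Oip5os1, the most abundant, had log2 fold changes of 0.11 and 0.09. Of 11 factors of nuclear RNA decay and export, Thoc1, a subunit of the THO complex, rose by 2.03 (standard error 0.48, edgeR adjusted p = 0.049), from 3.93 ± 1.43 CPM in CONTROL_IT to 16.2 ± 7.82 CPM in NCTD_IT (SD, n = 4 each), and the median was -0.004. Its call, like all others of this comparison, was lost when Xist was in the model. In the same list Zfc3h1, at 0.73 (standard error 0.29), was also higher at an unadjusted p below 0.05. Exosc10, at -0.63 (0.25), and Thoc5, at -0.50 (0.20), were lower at this threshold.

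The genes beside Malat1 and Neat1 were not higher as a group. Of 9 neighbours tested, 0 were called by edgeR, 1 was lower at an unadjusted p below 0.05, and the median was -0.29. Dpf2, the most abundant, stood at -0.29 (standard error 0.15) on the log2 scale and Pola2 at 0.38 (0.34). Beside Kcnq1ot1, 3 genes were tested and 0 called, with Cd81 at -0.58 (0.16) and Nap1l4 at 0.06 (0.17). The 6 imprinted genes listed around Meg3 did not pass the filter on low counts.

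**Figure D4:**
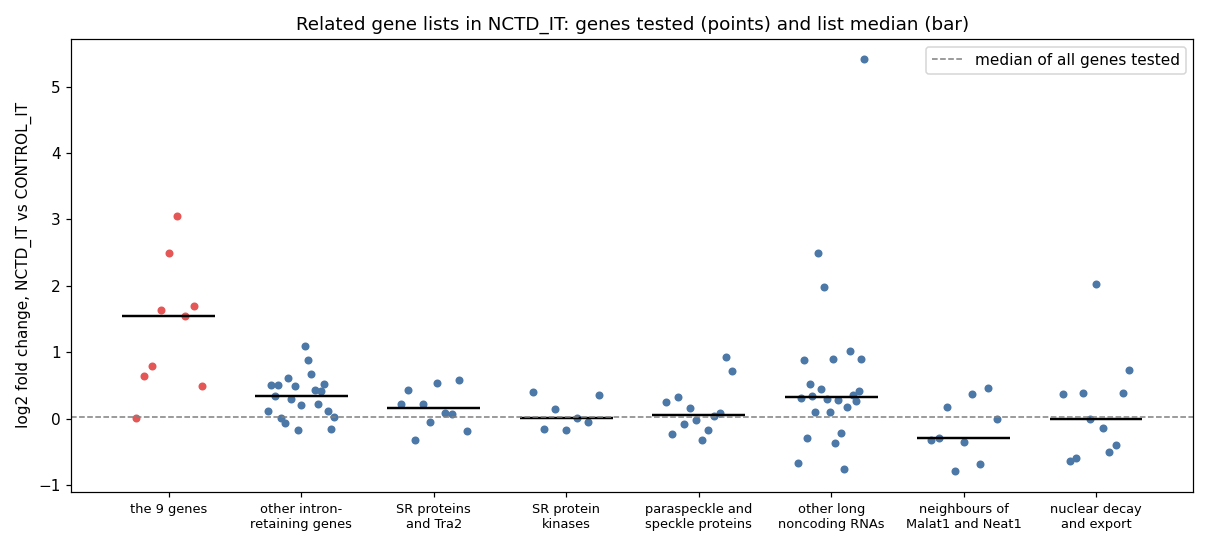
Log2 fold change in NCTD_IT vs CONTROL_IT of the genes tested in each list, with the list's median as a bar and the median of all genes as a dashed line. The medians of the other lists lie between -0.29 and 0.34, and the topmost point is Xist. The 9 genes, with a median of 1.54, were chosen with this comparison known, so nothing is read from their distance to the other lists.

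All protein-coding genes were also grouped by the number of transcripts annotated as intron-retaining. The median log2 fold change in NCTD_IT was 0.01 for 4349 genes with none, 0.02 for 4212 genes with 1 or 2, 0.03 for 2286 genes with 3 to 6 and 0.19 for 282 genes with 7 or more. In the last class, which holds Clk1 and Clk4, 60.3% of the genes had a log2 fold change above 0, against 52.0% of all genes tested. The same class had medians of 0.08 in MIX_IT, 0.06 in PTX_IT and -0.01 in NCTD_IP, with 57.8%, 58.2% and 48.9% of its genes above 0.

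The genes whose pattern over the 23 tumors was closest to that of Malat1 were Rsrp1, Spata13, Ier5, Ifngr1 and Etnk1. Likeness was measured as the root mean square gap between log2 levels, each minus its own mean, over 8495 genes with a mean of at least 10 CPM. The gap was 0.43 for Rsrp1, the smallest of all, and 0.43, 0.50, 0.52 and 0.52 for the others, against a median of 1.07 over all genes and 0.99 for a gene that does not vary. Neat1 ranked 33rd, Kcnq1ot1 71st, Clk4 178th, Clk1 368th, Srsf5 603rd, Meg3 4384th and AI506816 8106th. For Clk1, which varied little, the closest were Arfgef1, Syngr2, 9530068E07Rik, Zbtb38 and Sec11c with gaps of 0.20 to 0.22, against 0.32 for a gene that does not vary, and Clk4 ranked 22nd. These tumors share libraries, depth and cell make-up, and the ranks are a description. The 9 genes were chosen with levels in these tumors known, so nothing is read from their ranks.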

How the data were processed

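The deposited values are raw counts per gene that the authors made from 3′ mRNA libraries of 23 tumors. Per the labels and the study's methods, reads were checked with FastQC, trimmed with Trimmomatic, aligned to GRCm39 and counted with STAR 2.7.11b. The handling of strand, multiply mapped reads and molecular identifiers is not given in the sources used here, so copies of a repeat and overlapping genes may share reads, and so may Rn18s-rs5 and other ribosomal RNA copies.

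Genes with low counts were filtered (edgeR filterByExpr, at least 10 counts and 15 in total) and counts were scaled by TMM. Groups were taken from the sample titles. Models with 1 mean per group were fitted separately to the 15 IT tumors (12480 genes) and the 8 IP tumors (12424 genes), and to all 23 (13395 genes) for differences between routes. The edgeR 4.0.16 quasi-likelihood test was used in R 4.3.3 with Benjamini-Hochberg adjustment over all genes tested and a threshold of 0.05. Log2 fold changes carry the standard error of the fit.

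Alternatives were DESeq2 1.42.0, its size factors, no filter, no mitochondrial genes, Xist in the model, only the groups compared, and leaving out each tumor. The tests were tried on simulated counts first. The 9 genes and all gene lists were chosen with earlier results of these data known. Genes of a list were named where edgeR called them, up to 5 a list, and otherwise the 2 of highest level, marker lists of host cells without calls being given by their sums alone. Mmp8, Eng, Tyr, Exosc10 and Thoc5 were named as well, as they went against the calls of their lists, and Zfc3h1 was named beside the last 2. Xist and Ddx3y stand for the sex-linked genes, of which Eif2s3y was also called. Also named were the 5 genes closest to Malat1 and to Clk1. The labels number the tumors but do not name the mice, so p-values measure only the spread between these samples. All 25 pairs of replicates differed by more than sampling noise (chi-square of their counts over its degrees of freedom, 8.09 to 64.6). Gene positions and transcripts were taken from GENCODE vM39 and sequences from GRCm39.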

Additional observations from a re-analysis of the deposited data

Results flagged for a closer look

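Within groups of 4 tumors, 3 values stood far from the other 3 by Dixon's test. Meg3 in replicate 23 of MIX_IT reached 133 CPM, while the other tumors of the group were at 14.95 CPM or lower. Rsrp1 in replicate 9 of CONTROL_IT was 189 CPM, below the 219 to 221 CPM of the others, and Srsf5 in replicate 11 of CONTROL_IT was 235 CPM, above their 188 to 195 CPM. The test was applied to 27 combinations of a gene and a group, and chance gives about 1 in 20.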

How the results depend on the processing

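The number of genes called depended strongly on the fit. NCTD_IT vs CONTROL_IT had 171 calls in edgeR, 913 with DESeq2, 1190 without the filter, 946 with only the 2 groups compared and 0 with Xist in the model. MIX_IT vs CONTROL_IT had 0 calls in edgeR, 183 with DESeq2, 364 without the filter and 15 with Xist in the model. PTX_IT vs CONTROL_IT went from 0 to 3 with DESeq2 and 222 without the filter. MIX_IT vs NCTD_IT went from 1 to 7 and 190 under these 2 settings, and to 0 with Xist in the model or only the 2 groups. NCTD_IT vs PTX_IT went from 0 to 3 and 68, and MIX_IT vs PTX_IT from 0 to 5 and 109, or 1 with only the 2 groups. By the IP route, each comparison had 0 calls in edgeR. Without the filter NCTD_IP had 71, PTX_IP 71, MIX_IP 51, the NCTD effect over the 8 tumors 74 and the PTX effect 52. DESeq2 gave 1 for PTX_IP, 2 for MIX_IP, 1 for the NCTD effect and 2 for the PTX effect, and the fit to only the 2 groups gave 2 for NCTD_IP and 2 for MIX_IP. The differences between routes went from 0 to 77 with DESeq2 and 283 without the filter for NCTD, to 1 and 110 for PTX, and to 4 and 139 for MIX. The cause was not tested.

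When single tumors were left out, the calls ranged from 0 to 191 for NCTD_IT vs CONTROL_IT, 0 to 3 for MIX_IT vs CONTROL_IT, 0 to 2 for MIX_IT vs NCTD_IT and MIX_IT vs PTX_IT, and 0 to 1 for NCTD_IT vs PTX_IT. They ranged from 0 to 3 for NCTD_IP, 0 to 1 for PTX_IP, MIX_IP and the NCTD effect, and 0 to 2 for the PTX effect. With Xist in the model, a fit whose limits are given above, the log2 fold change in NCTD_IT turned to -0.29 for Malat1 and to -0.29 for Neat1. Of 1611 recomputed log2 fold changes of the 9 genes, 16 lost a call, 49 gained one and 2 that were called took the other sign, the remainder keeping their side of the threshold. Among values not called, 134 had the other sign, 17 of them with Xist in the model. No paired analysis was possible because the groups share no replicate numbers. With 2 tumors a group by the IP route and at most 4 by the IT route, the spread between tumors limits these comparisons. Meg3 had the lowest counts, 5 to 551 a tumor.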
